A study of Homo sapiens with 42 samples.

Results

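Nuclear RNA of K562 cells exposed to imatinib for 18 h was compared with nuclear RNA of untreated cells. The comparison rested on 6 of the 42 short-read libraries of the series, chosen by their labels: 3 from cells given 1 μM imatinib for 18 h (IM 18h) and 3 from cells given no drug (CTRL). K562 is an established human cell line from a chronic myeloid leukaemia in blast crisis, and all groups were this 1 line with its BCR-ABL1 fusion, seeded the day before treatment in medium with 10% serum. Each library of a group carries its own biological replicate number. Beside these stand 3 nuclear libraries of cells given 1 μM imatinib for 1 h (IM 1h) and 6 libraries of poly(A) mRNA, 3 untreated and 3 after 18 h of 1 μM imatinib. The nuclear groups given the cleavage inhibitor JTE-607 or extra KCl entered only the estimate of the spread, which all 15 nuclear libraries shared.

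The BCR-ABL1 protein is a tyrosine kinase that is active without a growth factor. It phosphorylates STAT5 and feeds the RAS-ERK and PI3K-AKT pathways, which in turn sustain MYC and ribosome production and keep FOXO transcription factors out of the nucleus. Imatinib occupies the ATP site of the kinase. K562 cells express embryonic and fetal globins and can take on further erythroid or megakaryocytic features. RNA of isolated nuclei, freed of ribosomal RNA, holds transcripts still being made, spliced transcripts not yet exported and many non-coding RNAs, so it lies closer to transcription than poly(A) mRNA of whole cells does.

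Promoters of 4 genes are shown as examples of erythroid genes that rose and of a ribosome biogenesis gene that fell whose windows hold well-known binding letters. Sequences are from RefSeq (GRCh38.p14), run 5′ to 3′ on the strand of the gene from 250 bases before to 50 after its start, and carry the matches in capitals. RRP9, a protein of the U3 particle that processes ribosomal RNA, is on the minus strand at chr3:51941855-51942154, with the E-box CACGTG, the site that MYC-MAX dimers bind. ALAS2, EPB42 and HBD are also on the minus strand, at chrX:55030928-55031227, chr15:43220969-43221268 and chr11:5234434-5234733, with AGATAA, a letter string bound by GATA factors.
RRP9: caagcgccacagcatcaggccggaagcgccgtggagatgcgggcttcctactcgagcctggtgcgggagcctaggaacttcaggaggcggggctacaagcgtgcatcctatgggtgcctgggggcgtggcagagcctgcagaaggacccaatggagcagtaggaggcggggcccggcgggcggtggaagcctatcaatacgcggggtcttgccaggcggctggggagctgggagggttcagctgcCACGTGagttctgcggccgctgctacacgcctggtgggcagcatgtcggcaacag
ALAS2: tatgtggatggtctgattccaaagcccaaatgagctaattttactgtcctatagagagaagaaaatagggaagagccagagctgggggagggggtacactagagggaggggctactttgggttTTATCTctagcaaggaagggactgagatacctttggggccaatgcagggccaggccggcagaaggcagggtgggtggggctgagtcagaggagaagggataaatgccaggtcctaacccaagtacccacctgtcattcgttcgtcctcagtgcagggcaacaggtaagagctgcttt
EPB42: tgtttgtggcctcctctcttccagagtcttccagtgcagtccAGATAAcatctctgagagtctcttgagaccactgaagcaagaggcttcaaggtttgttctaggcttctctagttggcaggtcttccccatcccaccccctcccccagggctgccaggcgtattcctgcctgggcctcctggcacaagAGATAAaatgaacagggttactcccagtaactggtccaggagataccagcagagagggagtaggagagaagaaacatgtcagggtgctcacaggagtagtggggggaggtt
HBD: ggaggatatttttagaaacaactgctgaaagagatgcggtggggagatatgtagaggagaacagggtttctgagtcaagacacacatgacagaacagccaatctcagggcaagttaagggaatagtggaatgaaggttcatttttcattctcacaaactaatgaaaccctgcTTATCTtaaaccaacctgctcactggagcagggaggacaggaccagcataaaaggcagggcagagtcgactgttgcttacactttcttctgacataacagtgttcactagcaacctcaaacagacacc
Letters were searched on both strands, and none of the strings contains another. CACGTG was present in 12 of the 35 matched promoters of 41 nucleolar ribosome biogenesis genes (34.3%) and in 7.43% of all 27305 promoters. AGATAA was present in 9 of 18 matched promoters of 25 red cell membrane genes (50%), in 2 of 14 of the haem synthesis genes and in 1 of 2 of the globins, against 10.5% of all. TTCNNNGAA, the string bound by STAT5, was found in 2 of 10 matched promoters of STAT5 targets, those of CISH and BCL6, and in 7.88% of all. A match is a description of the letters in this window and no evidence of binding.

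Counts per library lay between 19803825 and 22588484 in CTRL and between 16175394 and 23580149 in IM 18h. Transcripts of the mitochondrial genome took 4.92% to 6.2% of the counts in CTRL and 6.45% to 7.82% in IM 18h, so the groups did not overlap in this share, whose part in the other results was not tested. Such transcripts are made outside the nucleus, so the nuclear libraries held some RNA from outside it. How much other RNA of that kind they held was not tested. The line was checked against its markers: all 10 erythroid markers were detected, and their summed level was 5001 to 6602 CPM (counts scaled to library size with TMM factors) in CTRL and 11699 to 14243 CPM in IM 18h. Of 14 megakaryocyte markers, 7 passed the filter on low counts and 3 of those rose. Their summed level went from between 46.6 and 55.1 to between 169 and 226 CPM, mostly through the platelet tubulin TUBB1 (16.5, 17.7 and 22.9 against 195, 137 and 146 CPM), while GP1BB, PF4 and PPBP had no count in any of the 6 libraries. TUBB1 shares 34% of its exonic bases with ATP5F1E. Neutrophil and monocyte markers summed to 25.1 to 34 CPM in CTRL and 10.5 to 14.9 CPM in IM 18h, with ELANE, CTSG, S100A8 and S100A9 at no count, and lymphocyte markers to 7.28 to 10.6 and 3.1 to 5.09 CPM.

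The main question was which nuclear transcripts stood higher or lower after 18 h of imatinib. Of 21929 genes tested by edgeR's quasi-likelihood test, 7152 (32.6%) were called, which took an adjusted p (Benjamini-Hochberg) under 0.05 together with a log2 difference of more than 0.6 either way, 3777 of them higher (17.2%) and 3375 lower (15.4%). The share of calls that were higher was 52.8%, and 63.9% with upper quartile scaling (4580 higher, 2587 lower), which lifts the median of all genes by 0.12 on the log2 scale. The 3 IM 18h libraries lay wholly above or wholly below the 3 CTRL libraries in 11760 genes (53.6%), and in 97% of the genes called. Over genes of any level, rises reached further in fold than falls. Of the called genes, 717 rose by over 4-fold (3.27% of those tested) and 282 fell by as much (1.29%), and past 16-fold the counts were 101 and 27. Falls were the more numerous among called genes with a symbol, at least 10 CPM in the higher group and libraries not overlapping. Of these 1178 rose and 1953 fell.

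Among the genes with a symbol, at least 10 CPM on average in the group where they were higher and libraries that did not overlap, the largest rise was that of ANO1, a calcium-activated chloride channel gene (chromosome 11, 70078302 to 70189528). It had no count in any CTRL library and stood at 20.3, 7.26 and 9.65 CPM in IM 18h, at least 88.8-fold above a floor of 3 counts per library. BEST3, which codes for a bestrophin anion channel, went from 0.223, 0.0911 and 0.545 CPM to 51.3, 24.1 and 34.9 CPM (log2 fold change 7.01, SE 0.50, adjusted p 8.19e-08). SLC4A1 (chromosome 17, 44248385 to 44268141) codes for band 3, the anion exchanger of the red cell membrane. It stood at 2.46, 5.15 and 11.3 CPM in CTRL and at 1127, 379 and 664 CPM in IM 18h, a log2 fold change of 6.85 (SE 0.83, adjusted p 5.45e-05). ESPN, coding for the actin bundler espin, went from 0.67, 1.32 and 2.03 to 187, 85.1 and 105 CPM. The red cell membrane genes EPB42 (band 4.2) and AQP1 (a water channel) were also among the 8, and AQP1 was even across libraries, with 2.73, 3.55 and 4.36 CPM in CTRL and 83.5, 77.3 and 80.3 CPM in IM 18h. The phosphatase gene DUSP21 rose by 4.61 on the log2 scale (SE 0.30) and LMOD1, coding for an actin nucleator of the leiomodin family, by 4.52 (SE 0.27). None of these 8 calls depended on 1 library.

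The largest falls, by the same criteria, were those of 8 other genes. APOL4, an apolipoprotein L gene (chromosome 22, 36189124 to 36204840), stood at 16.9, 18.8 and 18.3 CPM in CTRL and at 0.122, 0.574 and 0.351 CPM in IM 18h (log2 fold change -5.71, SE 0.25, adjusted p 7.5e-12). IL10RA, the ligand-binding chain of the interleukin-10 receptor, went from 14.1, 17.6 and 19 to 0.286, 0.526 and 0.585 CPM (log2 fold change -5.21, SE 0.24). The zinc finger factor gene EGR1 (chromosome 5, 138465490 to 138469315) was uneven in CTRL, at 148, 151 and 68.7 CPM, and low in all IM 18h libraries, at 2.65, 4.35 and 5.15 CPM (log2 fold change -4.94, SE 0.65, adjusted p 9.06e-05). SLC2A3, coding for the glucose transporter GLUT3, fell from 258, 214 and 156 to 5.96, 14.5 and 10.1 CPM. SPRY4 and SOCS3, feedback inhibitors of the ERK and the JAK-STAT pathway, completed the protein-coding genes. The other 2 places went to the lncRNA gene LINC00861 (72.3, 56.5 and 47.9 against 2.37, 3.39 and 3.04 CPM) and to the processed pseudogene SOD1P3. These lie close together on chromosome 8 (125922308 to 125951249 and 125951861 to 125952314), and SOD1P3 is a copy whose reads may come from SOD1 or from its neighbour. The log2 fold change was -4.74 for SOD1P3, -4.33 for LINC00861 and -0.00 for SOD1, and the source of the reads was not tested.

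Among the called genes with a symbol, erythroid genes led the gains in absolute level. Genes not called, such as MT-CO1, were not ranked. HBE1, the embryonic beta-like globin, gained the most of the called genes, from 966, 1369 and 1792 to 4792, 3677 and 4173 CPM (log2 fold change 1.62, SE 0.35, adjusted p 0.00268). SLC25A37, coding for mitoferrin, the mitochondrial iron importer, went from 247, 266 and 356 to 3310, 2001 and 2556 CPM. HBG2 and HBZ were also among the 5 largest gains of called genes. The largest losses among called genes were of abundant housekeeping genes and smaller in fold. The glycolytic enzyme gene ENO1 fell from 2296, 2605 and 2508 to 811, 1237 and 1187 CPM (log2 fold change -1.20, SE 0.12, adjusted p 1.44e-07). The chaperone genes HSPA8 and HSP90AA1 fell by 0.92 and 1.17 on the log2 scale, the translation factor gene EIF4G1 by 1.12 and FASN, coding for fatty acid synthase, by 0.78. HSPA8 and HSP90AA1 have processed copies elsewhere in the genome, and only uniquely placed reads were counted.

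**Figure D1:**
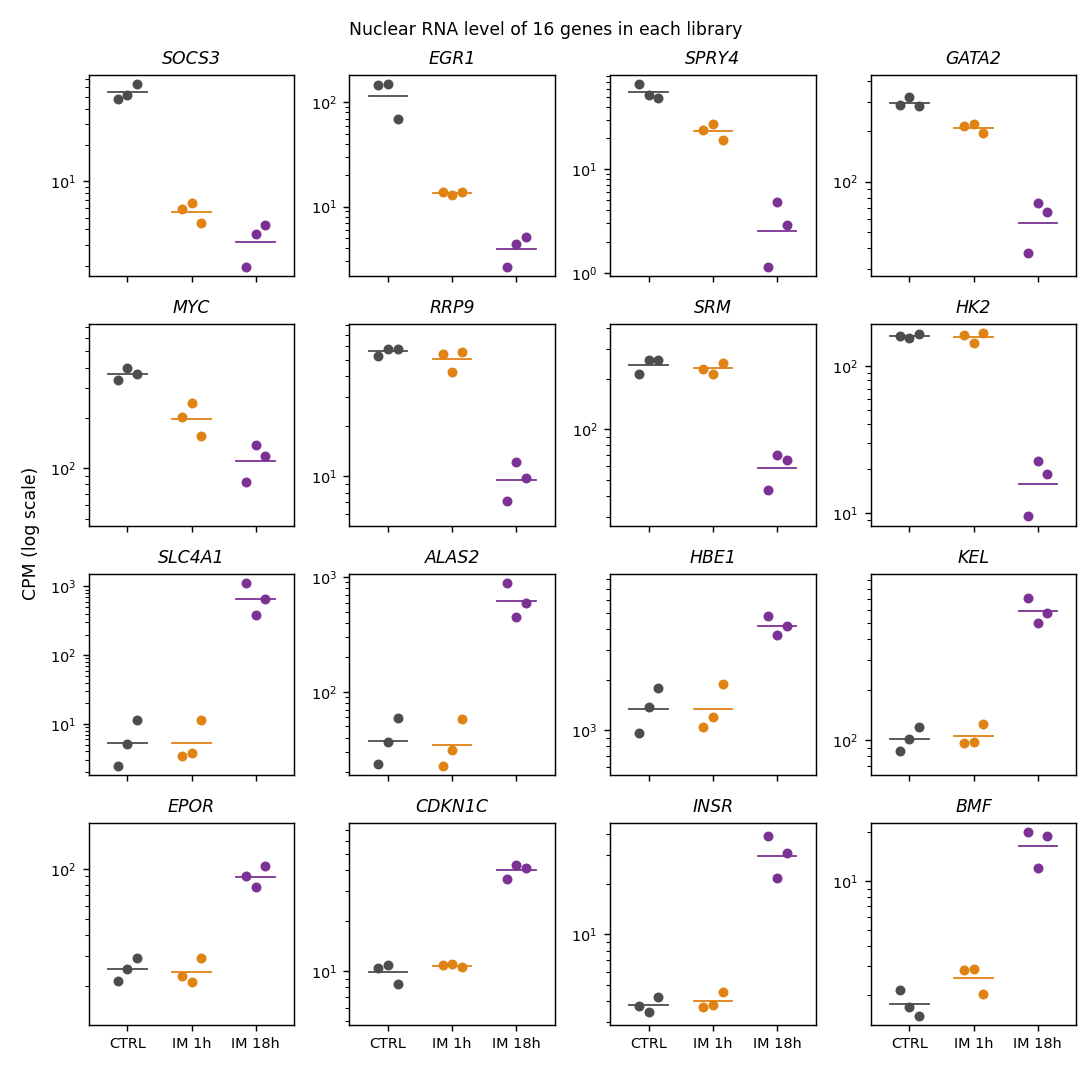
Level of 16 genes in each nuclear library, in CPM on a log axis, for CTRL, IM 1h and IM 18h (points are the 3 replicates in number order, lines the geometric mean). All 3 IM 18h libraries lie below CTRL in the 8 genes of the first and second rows, such as SOCS3, and above CTRL in the 8 genes of the lower rows, such as SLC4A1, while at 1 h SOCS3 and EGR1 already lay below CTRL and SLC4A1 overlapped it.

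The genes were then read by role, in 28 lists of pathway members. The first group of lists follows the kinase outward. The fusion's own partners changed little as a list: of 24 signalling partners of BCR-ABL1 tested, 4 rose and 4 fell (16.7% each way, beside 17.2% and 15.4% of all genes), with a median log2 fold change of -0.13, beside 0.00 over all genes tested. BCR stood at 268, 318 and 324 CPM in CTRL and 238, 295 and 305 CPM in IM 18h, and ABL1 at 428, 503 and 483 against 385, 473 and 499 CPM, so the groups overlapped in both genes that make up the fusion (adjusted p 0.42 and 0.705). The adaptor gene CRKL, the most abundant partner, was not called either (log2 fold change -0.21, adjusted p 0.0832). The partners that fell most were LYN, a SRC family kinase (185, 172 and 156 against 49.8, 69.7 and 53.7 CPM), and STAT5A (667, 738 and 699.9 against 249, 363 and 346 CPM). Its paralogue STAT5B, at a log2 fold change of 0.41, was not called. The largest rises were those of INPP5D, the SHIP1 phosphatase that opposes PI3K (log2 fold change 2.21, SE 0.23), and of the adaptor gene GAB1 (1.74, SE 0.15). JAK2 rose from 69.1, 54.6 and 51 to 159, 121 and 101 CPM.

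Targets of STAT5 were the list with the lowest median, -2.50, and 10 of the 11 tested members fell (90.9%, beside 15.4% of all genes). SOCS3, whose protein inhibits JAK kinases (chromosome 17, 78356778 to 78360077), stood at 48.4, 52.2 and 64.2 CPM in CTRL and at 1.96, 3.63 and 4.33 CPM in IM 18h (log2 fold change -4.08, SE 0.22, adjusted p 3.23e-10). ID1, coding for an inhibitor of helix-loop-helix factors, was even within groups, at 61.6, 61.1 and 59.6 against 4.21, 6.69 and 6.96 CPM. The feedback inhibitor CISH fell from 86.5, 116 and 133 to 11.9, 17.4 and 14.8 CPM. The survival kinase genes PIM2 (202, 221 and 217 against 25.4, 37.5 and 38.4 CPM) and PIM1 (509.6, 650.3 and 612 against 130.2, 151 and 180.3 CPM) fell, as did the cyclin gene CCND2 (485, 461 and 436 against 71.8, 101 and 71.4 CPM). BCL2L1, coding for the survival protein BCL-XL, went from 115, 125 and 113 to 54, 56.5 and 58 CPM, with 43% of its exonic bases shared with the antisense gene ABALON. The only member higher was BCL6, a repressor gene that STAT5 is known to silence, at 2.15, 3.28 and 3.02 against 3.59, 5.5 and 5.21 CPM (log2 fold change 0.75, adjusted p 0.0356). Its call was lost with CTRL replicate 1 (0.63) or 3 (0.85), or with IM 18h replicate 2 (0.63) or 3 (0.68), left out.

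Feedback genes of the ERK pathway showed the same tilt, with a median of -1.31. Of 14 tested members 11 were lower (78.6%, beside 15.4% of all genes) and 2 higher (14.3%, beside 17.2%). SPRY4, a sprouty inhibitor of RAS-ERK signalling, went from 66.9, 52.2 and 48.3 to 1.14, 4.83 and 2.87 CPM (log2 fold change -4.26, SE 0.36, adjusted p 8.09e-07). The ETS factor genes ETV5 (51.4, 44.6 and 36.8 against 2.2, 5.78 and 4.91 CPM) and ETV4 (79.7, 82.1 and 70.6 against 3.63, 14.9 and 10.7 CPM) also fell. In each of these, IM 18h replicate 1 was the lowest library. SPRED2, the most abundant member, fell by 0.96 (SE 0.11). Against this tilt DUSP1, coding for a phosphatase that inactivates MAP kinases, rose from 13.9, 16 and 16.2 to 31.9, 28.6 and 32 CPM, and PHLDA1 rose from about 1.13 to 3.13 CPM (log2 fold change 1.46, SE 0.32). PHLDA1 shares 16.5% of its exonic bases with its divergent transcript.

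Of 18 immediate early genes tested, 9 fell (50%, beside 15.4% of all genes), with a median of -0.91. EGR1 and FOS, an AP-1 subunit gene at 3.66, 3.96 and 1.58 against 0.327, 0.574 and 0.761 CPM, fell furthest. FOSL1, another AP-1 subunit gene, fell from 28.1, 28.7 and 29.5 to 6.21, 9.03 and 7.31 CPM. MCL1, the most abundant member and a survival gene of the BCL2 family, went from 432, 307 and 269 to 144, 147 and 137 CPM (log2 fold change -1.23, SE 0.21). JUNB, KLF6 and IER5 were not called, with log2 fold changes of -0.26, -0.23 and -0.09. JUN was among the members called lower, but not without CTRL replicate 1 (-0.62), CTRL replicate 2 (-0.69) or any IM 18h replicate (-0.80 to -0.81). The call of JUND was lost without CTRL replicate 1 (-0.49), CTRL replicate 2 (-0.53) or IM 18h replicate 1 (-0.55).

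Of 24 cytokine receptor genes tested 8 fell (33.3%, beside 15.4% of all genes) and 2 rose (8.33%, beside 17.2%), with a median of -0.05. Beside IL10RA, the interleukin-4 receptor gene IL4R fell from 7.91, 6.42 and 4.8 to 0.98, 1.39 and 0.995 CPM, and TGFBR1, a TGF-beta receptor gene, from 131, 105 and 101 to 55.3, 53.8 and 47.1 CPM. EPOR, the erythropoietin receptor gene on chromosome 19 (11377205 to 11384342), went the other way, from 21.3, 25.2 and 29.1 to 90.1, 77.3 and 104 CPM (log2 fold change 1.84, SE 0.17, adjusted p 4.81e-08). IL6ST, the shared signal chain of the interleukin-6 family, was called higher at 0.71 (adjusted p 0.0191), a call lost without IM 18h replicate 1 (0.40), and 1 member then remained higher.

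The MYC network and the growth genes came next. MYC (chromosome 8, 127735434 to 127741434) fell from 336, 399.7 and 366 to 82.6, 137 and 119 CPM (log2 fold change -1.71, SE 0.18, adjusted p 1.35e-06), and its partner gene MAX from 53.7, 54.9 and 59.9 to 28.5, 28.7 and 33.3 CPM. The antagonists MXD4 (12.9, 12.9 and 13.3 against 57.2, 50.2 and 60 CPM) and MXD3 (log2 fold change 1.14, SE 0.14) rose. MXD3 shares 40.4% of its exonic bases with PRELID1. Of 11 network genes tested 2 rose (18.2%, beside 17.2% of all genes) and 3 fell (27.3%, beside 15.4%). MLXIP, the most abundant after MYC fell, was not called (0.07, adjusted p 0.691).

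Nucleolar ribosome biogenesis fell nearly throughout. Of its 41 genes, 39 fell (95.1%, against 15.4% of all genes tested), the median log2 fold change was -1.46, and 2 were not called. RRP9, the promoter of which is printed above, fell from 52.6, 58 and 57.7 to 7.14, 12.2 and 9.77 CPM (log2 fold change -2.54, SE 0.17, adjusted p 1.24e-09). NOP16 (81.2, 90.7 and 94.9 against 12.1, 21.8 and 19.8 CPM), the RNA methyltransferase gene NOP2 (129.7, 138 and 138 against 24.3, 39.2 and 36.1 CPM) and POLR1B, coding for a core subunit of RNA polymerase I (125, 132 and 136 against 33.2, 44.5 and 43.4 CPM), fell as well. The abundant nucleolar proteins NCL (nucleolin) and DDX21 (an RNA helicase) fell by 1.22 and 1.63 on the log2 scale. The 2 members not called were NPM1, coding for nucleophosmin, at 1528, 1232 and 1153 against 1051, 950.3 and 744 CPM (-0.51, adjusted p 0.0161), and UBTF, an RNA polymerase I factor gene, at 0.54. NPM1 passed the fold threshold without IM 18h replicate 1 (-0.62). UBTF was called higher with CTRL replicate 2 (0.61) or 3 (0.63) left out, with upper quartile scaling (0.66) and with library totals alone (0.61).

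Other biosynthetic lists fell in part. Of 24 nucleotide and polyamine synthesis genes, 15 fell (62.5%, beside 15.4% of all genes) and 1 rose, with a median of -0.76. SRM, coding for spermidine synthase, fell from 215, 259 and 259.9 to 43.4, 70.4 and 65.6 CPM (log2 fold change -2.03, SE 0.16), the ornithine decarboxylase gene ODC1 from 721, 709 and 714 to 258, 300.4 and 277 CPM, and the pyrimidine synthesis gene CAD from 425, 563 and 564 to 155, 229 and 211 CPM. The purine genes PFAS and PAICS fell by 1.52 and 0.92. Of 20 cytosolic aminoacyl-tRNA synthetase genes 8 fell (40%, beside 15.4% of all genes), led by both phenylalanyl subunits, FARSA (-1.20) and FARSB (-1.19). EPRS1, the most abundant of the 12 not called, stood at 617, 461 and 399.6 against 960.5, 680.3 and 542 CPM (adjusted p 0.056). It was called higher without CTRL replicate 1 (0.80) or without IM 18h replicate 3 (0.73).

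In glucose use, 10 of 23 genes fell (43.5%, beside 15.4% of all genes) and 3 rose (13%, beside 17.2%), with a median of -0.43. The hexokinase gene HK2 fell from 161, 156 and 164 to 9.47, 22.4 and 18.3 CPM (log2 fold change -3.27, SE 0.21, adjusted p 1.15e-08), the pyruvate kinase gene PKM from 541, 593 and 503 to 81.9, 197 and 205 CPM, and LDHA, coding for lactate dehydrogenase A, from 924, 834 and 791 to 246, 353 and 315 CPM. The glucose transporter genes parted: SLC2A3 (GLUT3) fell by 4.37, whereas SLC2A1 (GLUT1), the transporter of erythroid cells, rose from 202, 238 and 266 to 644, 558 and 713 CPM (log2 fold change 1.44, SE 0.15). BPGM, the enzyme that makes the haemoglobin ligand 2,3-bisphosphoglycerate, rose from 21.9, 23.2 and 24.8 to 91.5, 66.5 and 71.1 CPM. Of 24 sterol and fatty acid synthesis genes 4 fell (16.7%, beside 15.4% of all genes) and 20 were not called, with a list median of -0.36. DHCR7, coding for the last enzyme of cholesterol synthesis, had a log2 fold change of -0.81. Of 23 genes of ATF4 and amino acid stress 5 fell (21.7%, beside 15.4% of all genes), led among the better expressed by TRIB3 (-1.35) and the amino acid transporter gene SLC7A5 (-1.11). Without CTRL replicate 2, CTRL replicate 3 or IM 18h replicate 1, 3 members fell. ATF4 itself was not called (304, 313 and 247 against 346, 340.4 and 331 CPM, adjusted p 0.442).

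**Figure D2:**
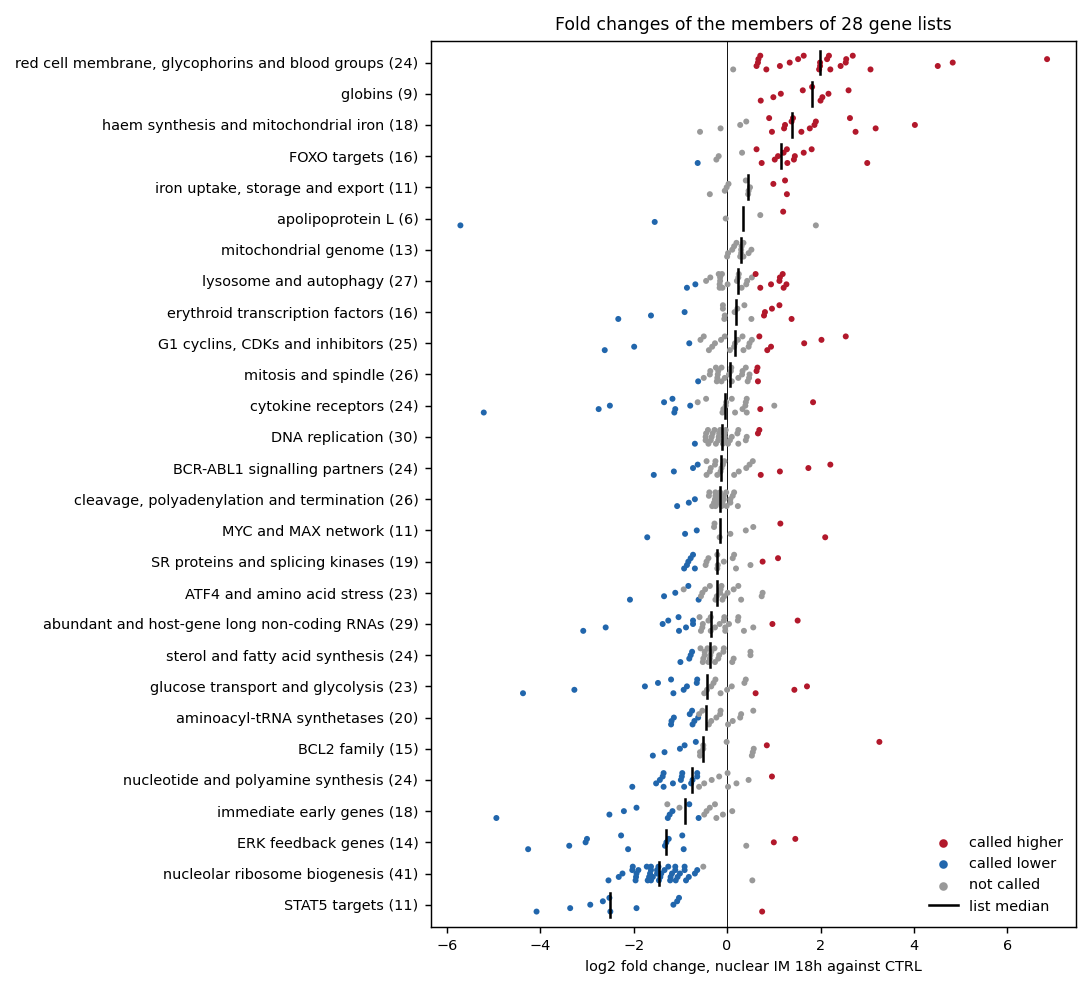
Log2 fold change, nuclear IM 18h against CTRL, of every tested member of the 28 gene lists (1 point per gene, the number tested in brackets, the list median as a bar). The red cell membrane, globin and haem lists lie to the right with medians of 1.99, 1.82 and 1.39, STAT5 targets and nucleolar ribosome biogenesis to the left with medians of -2.50 and -1.46, and DNA replication and mitosis stay near 0.

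Genes of DNA replication and mitosis were called less often (10% and 15.4% of those tested) than the 32.6% of all genes, a difference that was not tested. Of 30 DNA replication genes 2 rose and 1 fell, with a median of -0.12. CDT1, a licensing factor gene, stood at 117, 139 and 122 against 217, 196 and 199 CPM (log2 fold change 0.69). The ligase gene LIG1 was called at 0.66, a call lost without IM 18h replicate 1 (0.59), and GINS3, a helicase subunit gene, at -0.69, a call lost with upper quartile scaling (-0.57). MCM7, the most abundant, was at 757, 828 and 799 against 740.2, 707 and 696 CPM, so the groups did not overlap but the gene was not called (-0.15, adjusted p 0.111). Of 26 mitotic genes 3 rose and 1 fell, with a median of 0.06. Without CTRL replicate 1 the number higher was 5, and leaving out IM 18h replicate 1 made it 1. CDC25C, coding for the phosphatase that activates CDK1, rose by 0.65 (SE 0.11). NUSAP1, a spindle protein gene, was called at 0.66, but not without IM 18h replicate 1 (0.55). MAD2L1, a spindle checkpoint gene, was called lower at -0.62, but not without CTRL replicate 1 (-0.47), CTRL replicate 2 (-0.59) or IM 18h replicate 3 (-0.55). TOP2A was at 669, 459 and 341 against 792, 656 and 494 CPM and was not called, although without CTRL replicate 1 it was (0.73). The promoters of these lists held their own known letters more often than promoters in general did, TTTCCCGC (E2F) in 33.3% of 27 matched replication genes against 1.66%, and TTTGAA (the CHR element) in 69.6% of 23 matched mitotic genes against 15.4%.

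Of 25 genes of G1 control 6 were higher (24%) and 3 lower (12%), shares near those of all genes. The cell cycle inhibitor gene CDKN1C (p57) rose from 10.4, 10.9 and 8.42 to 35.6, 43.3 and 41.4 CPM (log2 fold change 2.02, SE 0.12, adjusted p 3.89e-10), and the antiproliferative BTG2 from 16.8, 18.4 and 19.6 to 126, 80.5 and 112 CPM. The cyclin gene CCND1 fell from 19.9, 16.9 and 9.85 to 1.59, 3.87 and 2.16 CPM. CDKN1A, coding for the inhibitor p21, fell too, from 5.18, 3.83 and 2.38 to 0.98, 1.1 and 0.761 CPM. CDK6, the most abundant member, was not called (-0.32, adjusted p 0.0594). In the BCL2 family 5 of 15 genes fell (33.3%, beside 15.4% of all genes) and 2 rose (13.3%, beside 17.2%). Without CTRL replicate 2 these numbers were 3 and 4. The 2 that rose code for BH3-only proteins, which promote cell death: BMF from 2.15, 1.69 and 1.49 to 20, 12 and 19 CPM (log2 fold change 3.26, SE 0.25) and BCL2L11 (BIM) from 42.5, 36.5 and 35.1 to 67.1, 65.3 and 72.8 CPM. The survival gene BCL2 (-1.59) and the effector gene BAK1 (-1.34) fell, as did BID and PMAIP1 (-1.01), which code for other BH3-only proteins. The call of PMAIP1 was lost with CTRL replicate 1 (-0.82) or 2 (-0.98), or with IM 18h replicate 2 (-0.98) or 3 (-0.86), left out. BCL2L13 had a log2 fold change of 0.53 and was not called, but was called without CTRL replicate 2 (0.60).

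Targets of FOXO factors rose: 12 of 16 tested (75%, against 17.2% of all genes), with a median of 1.15. INSR, the insulin receptor gene (chromosome 19, 7112255 to 7294034), went from 3.75, 3.42 and 4.21 to 38.9, 21.7 and 30.5 CPM (log2 fold change 3.00, SE 0.20, adjusted p 1.1e-09). CITED2, a transcriptional co-regulator gene, rose from 53.9, 56.6 and 59.2 to 187, 189.7 and 220.2 CPM, and TXNIP, coding for a thioredoxin inhibitor, from 379.8, 407 and 354 to 952, 934 and 888 CPM. FOXO3 itself rose from 39.8, 34.9 and 32.4 to 102, 77.5 and 81.3 CPM, and the catalase gene CAT from 156, 149.6 and 149 to 343, 299 and 279 CPM. The only member called lower was GADD45A (-0.63), a growth arrest gene, and it was not called without CTRL replicate 1 (-0.46), CTRL replicate 2 (-0.59) or IM 18h replicate 3 (-0.54). Of 27 lysosome and autophagy genes 8 rose (29.6%, beside 17.2% of all genes) and 2 fell (7.41%, beside 15.4%), with a median of 0.24. The autophagy kinase gene ULK1 (1.27), the acid glucosidase gene GAA (1.21) and the cathepsin gene CTSB (0.94) rose, and the galactosidase gene GLA fell by 0.86. TFEB, which codes for a regulator of lysosome genes, was called at -0.68, but not without CTRL replicate 2 (-0.47), CTRL replicate 3 (-0.55) or IM 18h replicate 1 (-0.40), and 1 member was then lower.

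All 9 globin genes tested were called higher (100%, beside 17.2% of all genes), with a median log2 fold change of 1.82. Globin transcripts went from between 0.323% and 0.52% of all counts to between 1.11% and 1.33%. HBZ, the embryonic alpha-like globin, rose from 171, 247 and 358 to 1772, 1276 and 1638 CPM (log2 fold change 2.60, SE 0.45, adjusted p 0.000696). The fetal gene HBG2 stood at 1290, 1729 and 1766 against 3801, 3424 and 3392 CPM, HBG1 rose by 0.99 and the adult alpha genes HBA1 and HBA2 by 1.82 and 2.04. HBG1 and HBG2, and HBA1 and HBA2, are near-identical and lost the reads they share, so the split within each pair is uncertain. The minor adult gene HBD, with the promoter printed above, rose from 13, 16 and 18.4 to 66.3, 64.4 and 82.4 CPM (log2 fold change 2.17, SE 0.29), and adult HBB from a mean of 1.28 to 5.11 CPM. In HBE1, HBZ and HBD, CTRL replicate 1 was the lowest of the untreated libraries.

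Haem synthesis followed, with 14 of 18 genes tested higher (77.8%, beside 17.2% of all genes) and 4 not called (list median 1.39). ALAS2, the erythroid aminolevulinate synthase that starts the pathway (chromosome X, 55009055 to 55031064), rose from 23.3, 36.4 and 59.6 to 891, 445 and 596 CPM (log2 fold change 4.02, SE 0.59, adjusted p 0.000222). The housekeeping synthase gene ALAS1 was lower by 0.58, short of the fold threshold. Along the pathway ALAD rose from 18.7, 19 and 21.5 to 167, 108 and 125 CPM, PPOX from 32, 41.3 and 45.3 to 279.8, 210.3 and 241 CPM, and FECH, coding for the ferrochelatase that inserts the iron, from 146, 164 and 181 to 694, 523 and 578 CPM. UROD, at 0.41, was not called. The iron importer SLC25A37 rose by 3.18 (SE 0.25, adjusted p 4.73e-07). Leaving out IM 18h replicate 2 or 3 made ALAS1 a call (-0.62 or -0.61).

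Red cell membrane genes had the highest median of the lists, 1.99, with 23 of 24 tested members higher (95.8%, beside 17.2% of all genes). Beside SLC4A1 and AQP1, EPB42 rose from 2.32, 3.92 and 5.74 to 147, 82.6 and 108 CPM (log2 fold change 4.83, SE 0.46, adjusted p 5.07e-06), with 34.8% of its exonic bases shared with CCNDBP1. The blood group genes KEL (85.6, 102 and 119.7 against 710, 500.2 and 573 CPM) and RHD (23.5, 35.6 and 38 against 197, 147 and 178 CPM) rose, although RHD and RHCE are close copies. GYPC, at 0.63, was the 1 member whose call was lost when a library was left out (0.57 without CTRL replicate 1), and TSPO2 was the 1 member not called. Of 11 genes of iron uptake and storage, 8 were not called and 3 rose (27.3%, beside 17.2% of all genes). These were TFR2, the second transferrin receptor (log2 fold change 1.24), NCOA4, the ferritin autophagy receptor (1.28), and the iron transporter gene SLC11A2 (0.99). The main transferrin receptor gene TFRC, at 1317, 1179 and 1221 against 2141, 1458 and 1522 CPM, did not overlap between groups but stayed under the fold threshold (0.46), and the ferritin gene FTL was lower by 0.37.

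Transcription factors of the erythroid line moved in both directions. GATA1, the master regulator of the lineage, stood at 199, 233 and 233 CPM in CTRL and at 180, 217 and 226 CPM in IM 18h (log2 fold change -0.09, SE 0.11, adjusted p 0.505). Of 16 factors tested, 5 rose (31.2%) and 3 fell (18.8%), beside 17.2% and 15.4% of all genes. TAL1 rose from 179.7, 201 and 230.3 to 565, 470 and 556 CPM (log2 fold change 1.38, SE 0.14), GFI1B by 1.12 and KLF1 from 108, 143 and 147 to 233, 252 and 287 CPM. GATA2, a factor of stem and progenitor cells (chromosome 3, 128479427 to 128493185), fell from 286, 320.2 and 283 to 37.2, 74.3 and 65.5 CPM (log2 fold change -2.33, SE 0.17, adjusted p 1.69e-08), and MYB, a progenitor gene, from 229.8, 192 and 194 to 52.8, 80.6 and 65.8 CPM. NFE2, the most abundant factor not called, was at a log2 fold change of 0.37.

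Genes of RNA processing were next. Of 19 SR proteins and splicing kinases 6 fell (31.6%, beside 15.4% of all genes) and 2 rose (10.5%, beside 17.2%), with a median of -0.21. SRSF7 (210.5, 199 and 209 against 114, 112 and 101 CPM), SRSF1 (363, 333 and 333 against 188, 205 and 177 CPM) and SRSF3 (398, 406 and 429 against 235, 252 and 257 CPM) code for splicing regulators and fell by 0.92, 0.86 and 0.73. SRSF1 shares 23.1% of its exonic bases with another gene. The CDC-like kinases, which phosphorylate SR proteins, went up in CLK4 (log2 fold change 1.09, SE 0.14) and CLK3 (0.76, SE 0.12). Of 26 genes for cleavage, polyadenylation and termination 3 fell (11.5%, beside 15.4% of all genes) and 23 were not called, with a median of -0.16. CLP1 fell from 23.2, 21.6 and 21.7 to 10.8, 9.65 and 11.2 CPM, and CSTF2, which binds downstream of the cleavage site, from 59.1, 56.4 and 54.1 to 31.8, 33.9 and 30.6 CPM. The nuclease gene CPSF3 stayed at a log2 fold change of -0.02 (adjusted p 0.953) and the most abundant member CPSF1 at -0.07.

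Among long non-coding RNAs, the largest rises were those of LINC02772 (0.849, 0.592 and 0.644 against 24.1, 11.9 and 8.6 CPM), SLC2A1-DT (3.49, 4.51 and 4.75 against 57.7, 50.4 and 62.4 CPM, log2 fold change 3.74, SE 0.17) and SGMS1-AS1 (log2 fold change 2.89). The largest falls, beside LINC00861, were those of MIR223HG (178, 153 and 119.6 against 6.41, 28 and 19.1 CPM), the host of miR-223, and SNHG15 (94.2, 104 and 94.9 against 11.2, 19.2 and 18.3 CPM), a snoRNA host. In the list of 29 abundant or host-gene lncRNAs tested, 9 fell (31%, beside 15.4% of all genes) and 2 rose (6.9%, beside 17.2%). The most abundant of all, MALAT1, differed more between replicates than between groups, at 15511, 14014 and 10077 CPM in CTRL and 15949, 14059 and 10681 CPM in IM 18h. KCNQ1OT1, an imprinted antisense transcript, rose from 228, 219 and 244 to 478, 444 and 430.1 CPM, and MIR210HG, a low-level host gene, by 1.51. Of 6 apolipoprotein L genes, APOL4 and APOL1 (24.9, 27.9 and 32.9 against 8.98, 9.99 and 10.2 CPM) fell, and APOL3 rose by 1.20 at no more than 1.71 CPM. The 13 protein genes of the mitochondrial genome had a median of 0.30 and no call by edgeR or DESeq2, though 7 were higher at an unadjusted p under 0.05, and the same number at an adjusted p under 0.05 with no fold threshold. With upper quartile scaling, or with CTRL replicate 2 left out, 1 was called higher. MT-CO1 stood at 9658, 12203 and 11017 against 11700, 12313 and 13832 CPM.

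Gene classes differed in direction, which is given here as counts with no test. Of 13765 protein-coding genes tested 16% were higher and 17.7% lower, whereas of 4196 lncRNA genes 23.1% were higher and 11.4% lower. Divergent transcripts had the largest share of rises. They are lncRNAs that start beside a gene and run away from it and carry its name with the ending -DT. Of 313 tested, 124 rose (39.6%) and 21 fell (6.71%), with a median log2 fold change of 0.60, and with upper quartile scaling 139 rose and 17 fell. The genes they are named after, tested in 309 cases, had a median of -0.10, with 31 higher and 60 lower. Where the partner rose 18 of 31 divergent transcripts rose and 2 fell, where it was not called 89 of 218 rose and 10 fell, and where it fell 17 of 60 rose and 8 fell. AKAP1-DT rose by 3.47 while its partner fell by 0.60, and SLC2A1-DT and its partner rose together. Since strand was not used in counting, reads of a partner's other strand may enter. In the 198 that share no exonic base with another gene, 82 rose and 11 fell. Genes named as antisense (-AS) were higher in 206 and lower in 92 of 816 (25.2% and 11.3%), near the shares of all lncRNA genes. The zinc finger (ZNF) genes of chromosome 19 were higher in 59 and lower in 14 of 215 (27.4% and 6.51%, beside 17.2% and 15.4% of all genes). These 3 classes, and the ribosomal protein genes, were chosen after values had been seen.

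Falls outnumbered rises among snoRNAs and mitochondrial ribosomal protein genes. Of 148 snoRNA genes tested 50 fell (33.8%) and 8 rose, with a median of -0.48. Most lie inside introns of host genes, and 46 lay in 31 hosts that fell. Of those 24 fell, with a median of -0.85, against 20 of 59 in hosts that were not called (median -0.36). Examples are SNORD20 in NCL (1.84 to 0.546 CPM, log2 fold change -1.74) and SNORD19 in GNL3 (-1.82). SnoRNAs are shorter than most library fragments, so these counts may include host RNA, which was not tested. Of 78 mitochondrial ribosomal protein genes 38 fell (48.7%), with a median of -0.59, and 25 did with upper quartile scaling. Of 85 cytosolic ribosomal protein genes 8 fell, with a median of 0.08. The other genes of both classes were not called. Replication-dependent histone genes fell in 11 and rose in 2 of 52 (21.2% and 3.85%, beside 15.4% and 17.2% of all genes).

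**Figure D3:**
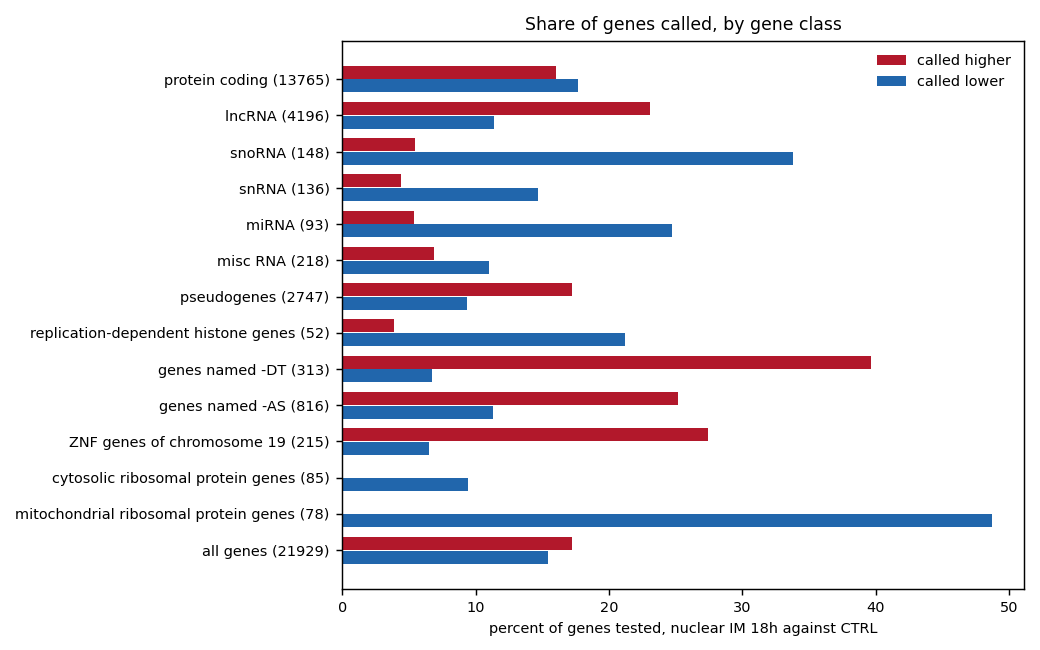
Percent of tested genes called higher and called lower in nuclear IM 18h against CTRL, by gene class (number tested in brackets, bars from 0). Divergent transcripts (-DT) have the largest share higher, 39.6%, and mitochondrial ribosomal protein genes the largest share lower, 48.7%, beside 17.2% and 15.4% of all genes.

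**Figure D4:**
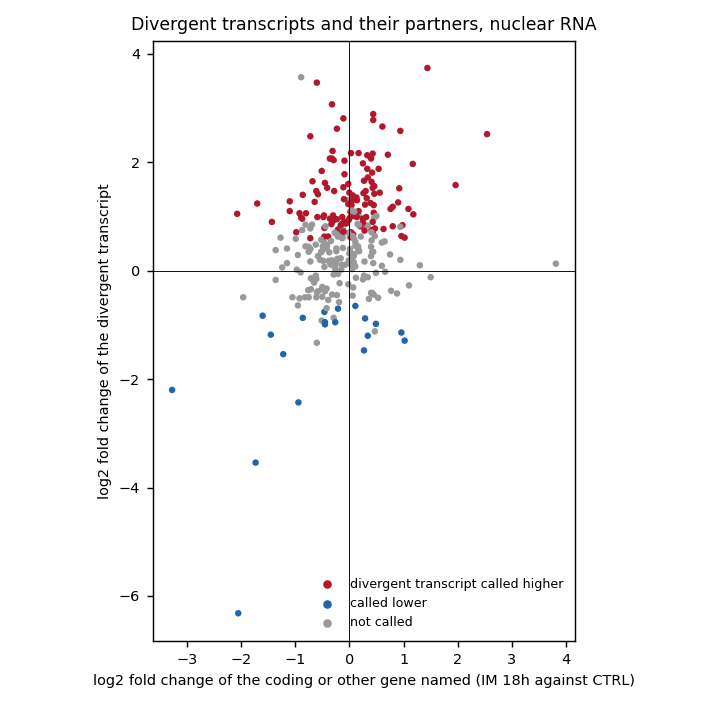
Log2 fold change of 309 divergent transcripts (vertical axis) and of the genes they are named after (horizontal axis), nuclear IM 18h against CTRL, coloured by the call of the divergent transcript. The cloud is shifted up, with a median of 0.60, and lies around 0 sideways, with a median of -0.10.

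The nuclear libraries after 1 h of imatinib show which of these differences were present early. Only 10 genes were called at 1 h against CTRL (0.0456% of those tested), or 69 with the replicate number as a block. At 18 h against 1 h, 6863 genes were called (31.3%), 3694 higher (16.8%) and 3169 lower (14.5%). The comparisons of 18 h and of 1 h with CTRL share their CTRL libraries, and the values are given side by side. SOCS3 was already at 5.92, 6.57 and 4.54 CPM at 1 h (log2 fold change against CTRL -3.27, SE 0.20, adjusted p 1.31e-07) and differed from 18 h by a further -0.81. CISH stood at 21.5, 30.7 and 23 CPM (-2.15, adjusted p 1.7e-05) and ID1 at 14.5, 17.5 and 14.3 CPM (-1.97, adjusted p 0.00691). These were the 3 STAT5 targets called at 1 h, and the other list member called was CITED2, higher by 0.77. EGR1 had 13.8, 13 and 13.9 CPM at 1 h, below all CTRL libraries, with a log2 fold change of -3.18 that was not called (adjusted p 0.173).

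MYC was at 203, 246 and 155 CPM at 1 h, between the other groups and overlapping neither, and PIM1 at 196, 358 and 203 CPM. Neither gene was called at 1 h against CTRL. PIM2 and CCND2, in contrast, were at 196, 181 and 194 CPM and at 507, 475 and 446 CPM, close to CTRL, and were lower at 18 h than at 1 h by 2.50 and 2.55 on the log2 scale. Ribosome biogenesis genes had a median of 0.05 at 1 h against CTRL and of -1.48 at 18 h against 1 h, with 40 of 41 lower. ERK feedback genes went from a median of -0.05 at 1 h to -1.26 for 18 h against 1 h, with 11 of 14 lower. All 9 globins (median 1.77), 14 of 18 haem synthesis genes (1.47) and 21 of 24 red cell membrane genes (1.81) were higher at 18 h than at 1 h, after medians of 0.02, 0.01 and 0.03 at 1 h. SLC4A1 stood at 3.39, 3.78 and 11.6 CPM at 1 h, overlapping CTRL. FOXO targets had a median of 0.08 at 1 h and of 1.01 between 1 and 18 h, with 10 of 16 higher.

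Poly(A) mRNA of the same treatment was set beside nuclear RNA, to ask whether the 18 h difference was of another size in the nucleus. In mRNA 5513 of 18095 genes were called (30.5%). List medians were close in both: 1.82 in nuclear RNA and 1.94 in mRNA for globins, 1.39 and 1.48 for haem synthesis, 1.99 and 1.89 for red cell membrane, -2.50 and -2.39 for STAT5 targets, -1.46 and -1.31 for ribosome biogenesis. The test of the difference between the 2 effects (an interaction over 12 libraries) called 18 of 19967 genes (0.0901%), 11 with the higher effect in nuclear RNA and 7 with the lower. Of the 19967, 974 had an unadjusted p under 0.05, about as many as that threshold passes when no gene differs. Leaving out replicate 1, 2 or 3 gave 13, 9 or 10 calls for nuclear CTRL, 13, 12 or 19 for nuclear IM 18h, 12, 17 or 11 for mRNA CTRL and 11, 9 or 12 for mRNA IM 18h.

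Few genes were called different in their effect between nuclear RNA and mRNA, and the effects of genes not called are not shown to be equal. PRNCR1, a lncRNA gene on chromosome 8 (127079874 to 127092600), rose in nuclear RNA from 0.0447, 0.0456 and 0.149 to 2.82, 1.63 and 2.05 CPM and fell in mRNA from 1.76, 1.62 and 1.56 to 0.923, 1 and 0.935 CPM (difference of the log2 fold changes 5.53, SE 0.53, adjusted p 9.71e-05). It had 5 counts in all CTRL nuclear libraries together. TUBA1A, an alpha tubulin gene, rose more in nuclear RNA (3.93, 4.78 and 3.61 against 27.1, 22.1 and 24.5 CPM) than in mRNA (23.2, 23.2 and 23.4 against 43.7, 33.3 and 37 CPM), by 1.92 (SE 0.20). CLEC2D rose in nuclear RNA from 3.53, 2.23 and 3.37 to 25.1, 14.4 and 13.9 CPM, and in mRNA was 25.3, 20.4 and 18.4 against 25, 26.1 and 19.8 CPM. The mitochondrial ribosomal RNA genes MT-RNR1 and MT-RNR2 differed by 2.46 and 1.74, in nuclear libraries from which ribosomal RNA had been removed, and H2AC8, a histone gene, by -1.42. These 5 calls and that of PRNCR1 stayed in all 12 fits with 1 library left out, as did the pseudogene HSPA8P1.

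Histone genes as a class had 2 called higher and 11 lower of 52 in nuclear RNA (3.85% and 21.2%, beside 17.2% and 15.4% of all genes). In mRNA 17 of 43 tested were higher (39.5%, beside 18.3% of the 16728 genes tested in both fractions) and 26 were not called. Normally processed histone mRNAs have no poly(A) tail, so the mRNA libraries hold only the part that carries one. H2AC8 stood at 298, 355 and 356 against 232, 266 and 299.7 CPM in nuclear RNA and at 4.74, 5.19 and 4.07 against 12.9, 9.32 and 8.64 CPM in mRNA. H2BC26, with 43.1, 51.9 and 48.1 against 36.3, 51.9 and 43.6 CPM in nuclear RNA, differed by -1.43 (adjusted p 0.0443), a call that stayed in 2 of 12 fits with 1 library left out. Divergent transcripts rose in both fractions, in 124 of 313 in nuclear RNA (39.6%) and in 110 of 238 in mRNA (46.2%), beside the same shares of all genes, 17.2% and 18.3%.

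**Figure D5:**
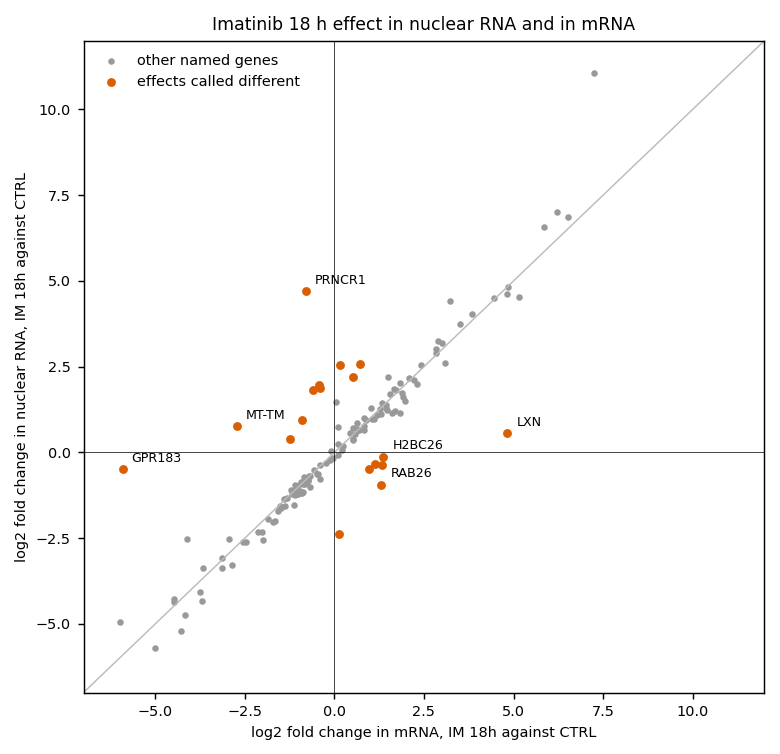
Log2 fold change of imatinib at 18 h in nuclear RNA (vertical) and in poly(A) mRNA (horizontal) for 140 genes named by rule or called different, with the diagonal as a line. Most genes lie near the diagonal, and the 18 genes whose effects were called different (orange), such as PRNCR1 at 4.71 in nuclear RNA and -0.79 in mRNA, lie off it.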

How the data were processed

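The authors trimmed and deduplicated the reads with fastp, aligned them to the human genome with STAR (build GRCh38.p14 per the labels), kept unique alignments with introns up to 10000 bases, and deposited whole-number counts of read pairs over the exons of each gene from featureCounts. Libraries keep strand, but counting used no strand option, so overlapping and antisense genes cannot be told apart, and reads shared by near-identical genes are lost. Nuclear RNA was freed of ribosomal RNA (Kapa RiboErase), and mRNA was selected with oligo-dT beads. Groups came from the labels. Replicates are labelled biological, and p-values measure only the spread between these libraries.

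Counts were fitted with edgeR 4.0.16 in R 4.3.3 (TMM, filterByExpr, robust quasi-likelihood F test, two-sided) on all 15 nuclear libraries, all 27 mRNA libraries, or, for the difference between both, 12 libraries. Adjusted p-values are Benjamini-Hochberg over all genes tested, 21929 in nuclear RNA. Fold changes are relative to the TMM centre. The test was tried on simulated counts. DESeq2 1.42.0, other scalings, no low-count filter, the 6 libraries alone, a replicate block and leaving out each library were alternatives. Replicates differed beyond counting noise, with a chi-square per gene of 5.39 to 24. Same-numbered nuclear libraries deviated together (Pearson r over genes of at least 10 CPM 0.648, 0.235 and 0.676 between IM 18h and CTRL, and 0.821, 0.373 and 0.774 between IM 1h and CTRL), so the numbers pair them, less clearly for replicate 2. CTRL replicate 2 deviated more with IM 18h replicate 3 (0.504) than with IM 18h replicate 2. The main fits did not use the pairing, and the replicate block did. Between IM 18h and IM 1h r was 0.509, 0.0094 and 0.557. For differently numbered nuclear libraries of IM 18h and CTRL it ran from -0.791 to 0.504.

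Genes were named by rule. Among called genes these were the 8 largest rises and falls with at least 10 CPM and no overlap, and the 5 largest gains and losses in CPM. The rule also took in each list up to 2 called rises, 2 called falls and the most abundant member. The 3 largest lncRNA changes each way, and 3 each way for the difference between fractions, completed it. Further list members are named to describe a list in full. A few genes that the rule names are not reported here. The members and lists were chosen with earlier results of these data known. Positions are from GENCODE and promoters from RefSeq.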

Additional observations from a re-analysis of the deposited data

Results flagged for a closer look

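Results are listed here where the effect of imatinib differed between times or between RNA fractions by a test of the difference itself. At 18 h against 1 h of imatinib, 6863 nuclear genes were called. For the 18 h effect in nuclear RNA against mRNA, 18 genes were called.

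The difference of the log2 fold changes (nuclear minus mRNA) was 5.53 for PRNCR1. It was 5.47 for GPR183 and -4.22 for LXN, and both depend on the prior count of the fit because one group had very few mRNA counts. It was 3.55 for MT-TM, -2.19 for RAB26 and -1.43 for H2BC26. With 1 library left out, the call stayed in 12 of 12 fits for PRNCR1, 10 for GPR183, 11 for LXN, 2 for MT-TM, 3 for RAB26 and 2 for H2BC26. RAB26 was itself called lower in nuclear RNA, and that call was lost without CTRL replicate 3 (-0.62). No cause was tested for any of these.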

How the results depend on the processing

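In nuclear RNA, IM 18h against CTRL gave 5995 to 7209 calls with 1 library left out, 6732 with DESeq2, 7167 with upper quartile scaling and 7984 with no low-count filter. With the replicate number as a block it gave 7638. The replicate block changed no call among the 184 genes compared between settings, and no list count by over 1.5 times. At 18 h against 1 h the number lower was 4952 with no fold threshold. For the difference between nuclear RNA and mRNA, calls were 33 with DESeq2 (17 higher, 16 lower), 61 with no low-count filter (32 and 29), 30 with the replicate block (18 lower), and 9 to 19 with 1 library left out (7 to 10 higher, 2 to 9 lower). Same-numbered mRNA libraries of IM 18h and CTRL share only a number (r of their deviations -0.366, -0.335 and 0.12). Differently numbered ones ran from -0.245 to 0.452, the highest being IM 18h replicate 1 with CTRL replicate 2. The replicate block, which follows the numbers, gave 5948 mRNA calls. The cause of these moves was not tested, apart from the number of genes tested where no filter was used.

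Among the 151 called genes compared between settings, none changed direction. Among genes not called, log2 fold changes turned sign with upper quartile scaling in H2BC26 (0.00), BCR (0.00), CPSF1 (0.05), GATA1 (0.03), IER5 (0.03), ABL1 (0.06) and CPSF3 (0.11). They did so with library totals alone in ABL1 (0.01) and CPSF3 (0.05), and CPSF3 gave 0.00 with RLE factors and 0.04 without genes over 1% of counts. With 1 library left out, values ran from -0.26 to 0.00 in H2BC26, from -0.04 to 0.21 in MLXIP, from -0.11 to 0.04 in CPSF1, from -0.09 to 0.21 in MALAT1, from -0.16 to 0.00 in GATA1, from -0.17 to 0.03 in IER5, from -0.14 to 0.05 in ABL1 and from -0.18 to 0.15 in CPSF3. The depth, at 16175394 counts or more per library, leaves genes under the low-count filter undescribed.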
